A study of Homo sapiens with 6 samples.

Results

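Of the 60483 genes listed for each library, 30 were examined as the genes of cholesterol synthesis and of its control by SREBP2. They are 19 enzymes of the mevalonate and sterol pathway, taken in pathway order, and 11 genes of sterol sensing, transport, storage and efflux control. The 30 genes were chosen by their known roles, at a time when earlier results of these data were known. They were found by matching Ensembl IDs to gene symbols, and each symbol matched 1 ID. RNA came from DLD-1, a human colorectal adenocarcinoma cell line, and was sequenced after transfection with siRNA against AHR (3 libraries) or with a control siRNA (3 libraries). AHR encodes the aryl hydrocarbon receptor, a transcription factor activated by small ligands. Both groups were grown in the same serum-containing medium and were taken at passages 16-19. No label says that the replicates were separate cultures, and the p-values then cover only the spread among these 6 libraries, which may be technical.

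Cells build cholesterol from acetyl-CoA through mevalonate, isoprenoid diphosphates, squalene and lanosterol. The transcription factor SREBP2 switches on the genes of this pathway: when sterols in the endoplasmic reticulum run low, the escort protein SCAP carries SREBP2 to the Golgi, where proteases release its active part, and when sterols are plentiful the INSIG proteins hold SCAP back. The liver X receptors (LXRs) answer the opposite state, a surplus of oxysterols, and induce genes that lower the sterol load.

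The libraries held 11567736 to 12937058 counts in the AHR siRNA group and 13585529 to 15037145 counts in the control siRNA group. AHR itself stood at 95.8, 87.4 and 94.95 CPM (counts per 1000000 counts, with library sizes scaled by TMM) in AHR siRNA libraries, against 117, 144 and 132 CPM in control siRNA libraries, a log2 fold change of -0.50 (edgeR adjusted p = 1.98e-05, SE 0.08). Epithelial markers were abundant: the summed level of 11 markers was 8360 to 8710 CPM in AHR siRNA libraries and 12100 to 13600 CPM in control siRNA libraries. Of the 10 tested, 6 were called lower, where 30.1% of all tested genes were. Among these 6, KRT8 averaged 3902 CPM in AHR siRNA cells and 6359 CPM in control siRNA cells, and KRT18 averaged 1756 and 2829 CPM. KRT19, KRT20, CLDN3 and CLDN4 were not called. Summed markers of fibroblasts, leukocytes and endothelium reached at most 3.31, 2.64 and 2.48 CPM in AHR siRNA libraries and 3.15, 4.14 and 1.95 CPM in control siRNA libraries, and DCN, LUM and KDR were at 0 in all 6. Markers of proliferation moved with the groups: 8 of 8 were called lower, where 30.1% of all tested genes were. The summed level of these markers was 1020 to 1120 CPM in AHR siRNA libraries against 2840 to 2950 CPM in control siRNA libraries. Their part in the results below was not tested. In a principal component plot the first component separated the groups. The second, with 8.35% of the variance, placed control siRNA replicate 1 (23.25) away from control siRNA replicates 2 and 3 (-12.12 and -12.82). On it AHR siRNA replicates 1, 2 and 3 stood at 10.5, 2 and -10.8, so both groups fell in the order of their replicate numbers.

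The pathway did not move in a single direction. Of the 30 genes, which were all expressed well enough to be tested, 10 were lower in AHR siRNA cells, 8 were higher and 12 were not called (edgeR quasi-likelihood test, adjusted p under 0.05). That is 60.0% called, while 60.1% of all 14900 tested genes were called, 30.1% lower and 30% higher, so the share of called members was near the background. The median log2 fold change of the 30 genes was -0.065, against 0.007 for all tested genes, and the median size of the change was 0.23, against 0.39. TM7SF2 and SOAT1 were the 2 members called with a fold of at least 2, where 13.2% of all tested genes were. In 10 of the 30 genes every AHR siRNA library lay below every control library and in 8 every one lay above, together 60.0%. Over all tested genes 31.7% lay below and 32.0% above, together 63.7%. With libraries scaled by their totals alone, the split was 7 lower and 12 higher, and all tested genes leaned the same way, with 3205 lower, 5885 higher and a median log2 fold change of 0.154. With upper-quartile factors 7 members were lower and 11 higher, and of all tested genes 3781 were lower and 5223 higher.

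**Figure D1:**
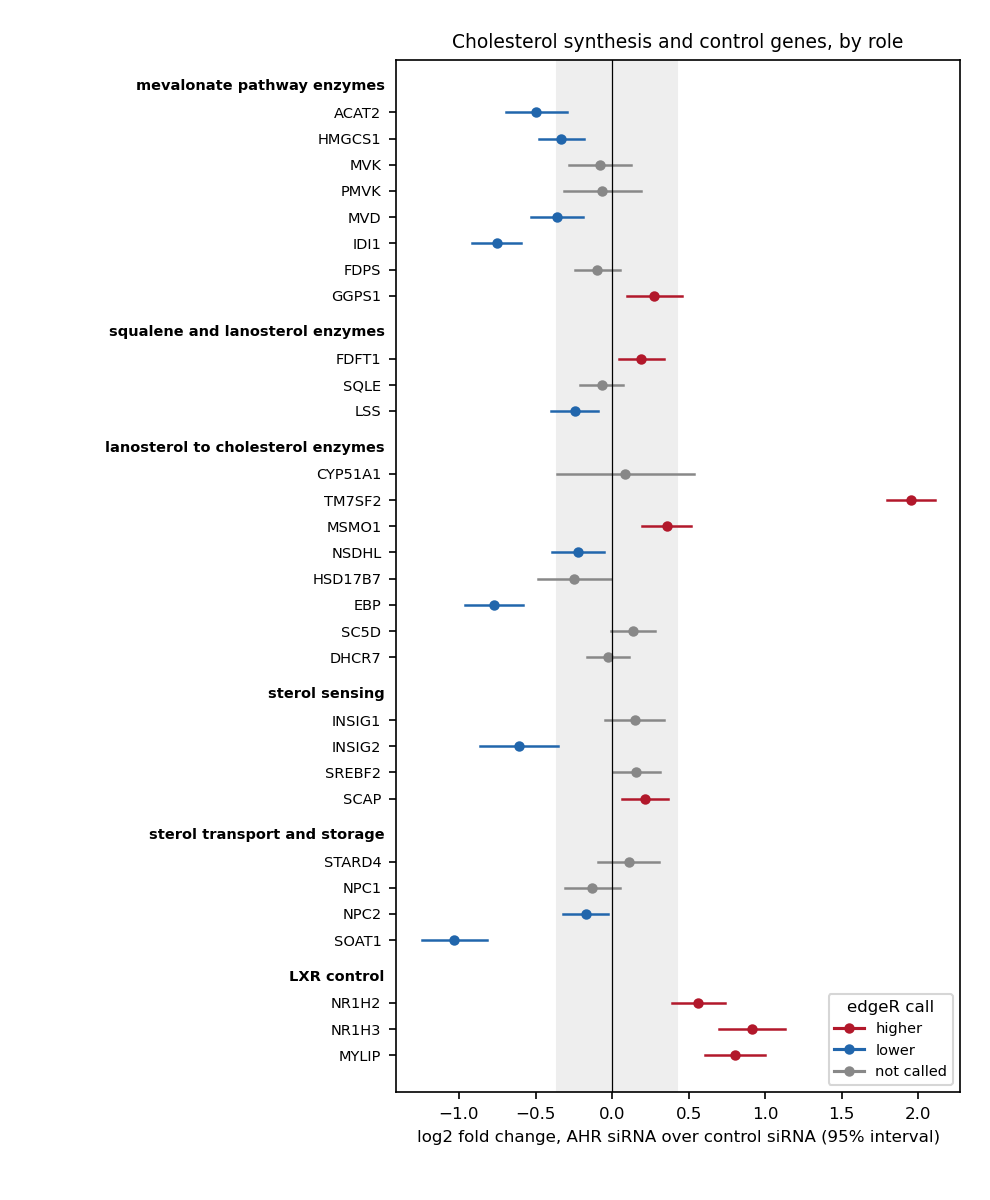
Log2 fold change of each of the 30 genes, AHR siRNA over control siRNA (3 libraries each), grouped by role in pathway order. Points are edgeR estimates, bars 95% intervals without adjustment for multiple testing, colour the call at adjusted p under 0.05, and the grey band runs from the 25th to the 75th percentile of all tested genes (-0.36 to 0.43). TM7SF2 at 1.95 and SOAT1 at -1.03 lie farthest from 0, and the 3 genes of LXR control lie to the right of the band.

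Promoters of 4 of these genes are shown for the members the results turn on: SREBF2, the gene of SREBP2 itself, TM7SF2 with the largest rise, SOAT1 with the largest fall, and EBP with the largest fall among the enzymes. Each runs 5′ to 3′ on the gene's strand from 250 bases before the RefSeq start to 50 bases after it (GRCh38.p14). Capitals mark the letters TCACNCCAC of a sterol regulatory element, to which SREBPs bind, and the CCAAT box bound by NF-Y, a factor known to work together with SREBPs, on either strand (ATTGG is the CCAAT box read on the other strand). All 4 genes lie on the plus strand, at chr22:41832855-41833154 for SREBF2, chr11:65111622-65111921 for TM7SF2, chrX:48521558-48521857 for EBP and chr1:179293547-179293846 for SOAT1.
SREBF2: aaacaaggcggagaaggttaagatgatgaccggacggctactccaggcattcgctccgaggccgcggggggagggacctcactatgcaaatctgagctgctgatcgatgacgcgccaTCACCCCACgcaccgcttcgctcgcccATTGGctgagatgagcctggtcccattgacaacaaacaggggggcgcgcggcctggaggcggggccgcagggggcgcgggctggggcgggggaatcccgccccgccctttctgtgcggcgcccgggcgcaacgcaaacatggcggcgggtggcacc
TM7SF2: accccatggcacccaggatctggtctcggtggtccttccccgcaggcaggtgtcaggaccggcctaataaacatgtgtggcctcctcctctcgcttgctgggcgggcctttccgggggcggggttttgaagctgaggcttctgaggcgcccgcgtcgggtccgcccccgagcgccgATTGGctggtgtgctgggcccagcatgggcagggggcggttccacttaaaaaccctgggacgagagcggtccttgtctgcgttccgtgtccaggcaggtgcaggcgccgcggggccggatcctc
EBP: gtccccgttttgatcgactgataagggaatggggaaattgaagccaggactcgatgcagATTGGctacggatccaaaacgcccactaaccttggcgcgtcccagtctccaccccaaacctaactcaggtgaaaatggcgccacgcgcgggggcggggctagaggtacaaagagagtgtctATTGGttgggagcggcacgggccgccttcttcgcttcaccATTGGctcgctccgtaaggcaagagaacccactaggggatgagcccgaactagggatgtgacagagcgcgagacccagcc
SOAT1: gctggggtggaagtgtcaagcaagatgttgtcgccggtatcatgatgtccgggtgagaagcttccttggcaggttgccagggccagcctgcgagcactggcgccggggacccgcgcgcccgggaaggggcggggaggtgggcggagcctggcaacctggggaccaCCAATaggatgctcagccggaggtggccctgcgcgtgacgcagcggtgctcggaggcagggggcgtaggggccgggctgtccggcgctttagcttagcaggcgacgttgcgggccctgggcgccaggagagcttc

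RefSeq promoter windows were available for 27 of the 30 genes, and not for ACAT2, FDFT1 and SQLE. The 9 letters TCACNCCAC were searched on both strands and found in 1 of the 27, SREBF2. Of the 10720 tested genes with a window, 1.4% held them. Counted by window, they stood in 1 of the 39 windows of these genes and in 1.1% of all 35116 RefSeq windows. Functional sterol elements vary in sequence, so other windows can hold elements spelled differently. A CCAAT box stood in 21 of the 27 (77.8%), against 42.9% of tested genes with a window; counted by window, it stood in 23 of the 39 windows of these genes and in 34.6% of all windows. It was present in 8 of 9 members called lower (not in INSIG2), in 5 of 7 called higher (not in SCAP or NR1H2) and in 8 of 11 that were not called. The core letters GCGTG of the element that AHR binds were also searched on both strands. They stood in 22 of the 27 (81.5%), against 58.0% of tested genes with a window. Counted by window, they stood in 28 of the 39 windows of these genes and in 36.5% of all windows. For each of these motifs, all windows include those of untested genes and are a less like background than the tested genes. By gene, GCGTG stood in 40.6% of all genes with a window, below the 58.0% of tested genes. The letters GCGTG stood in 8 of 9 members called lower, in 5 of 7 called higher and in 9 of 11 that were not called. They were missing from the windows of TM7SF2, MYLIP, NPC2, MVK and NPC1. In the SREBF2 window the sterol element and a GCGTG on the other strand overlap. These are matches of letters, not measured binding. Several genes have more than 1 window, so genes with many starts had more chances to match.

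Of the 8 genes of the mevalonate segment, 4 were lower (ACAT2, HMGCS1, MVD and IDI1), 1 was higher (GGPS1) and 3 were not called (MVK, PMVK and FDPS), with a median log2 fold change of -0.21. IDI1 encodes the isomerase that interconverts the pair of five-carbon isoprenoid units and stood at 38.0, 39.0 and 36.9 CPM in AHR siRNA libraries, against 67.3, 65.0 and 59.9 CPM in control siRNA libraries. The groups were well apart, with AHR siRNA cells at 59.3% of control (log2 fold change -0.75, SE 0.08, edgeR adjusted p = 6.95e-08).

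ACAT2, the cytosolic thiolase that joins acetyl-CoA units in the first step, was measured at 46.0, 38.8 and 37.4 CPM in AHR siRNA libraries and at 65.0, 51.7 and 55.4 CPM in control siRNA libraries. Every AHR siRNA library was below every control library, at a log2 fold change of -0.49 (edgeR adjusted p = 0.000175, SE 0.09). Exons of ACAT2 overlap TCP1, SOD2 and a non-coding RNA on the opposite strand, and the strand setting of the counting is not given, so reads from these genes cannot be told apart there. TCP1, a chaperonin subunit gene with far more reads (44708 counts over the 6 libraries, against 3928 for ACAT2), was lower too, at a log2 fold change of -0.63 (SE 0.07).

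MVD, which encodes mevalonate diphosphate decarboxylase, had 29.2, 32.2 and 30.3 CPM in AHR siRNA libraries and 38.3, 41.4 and 37.9 CPM in control siRNA libraries. The groups did not overlap, and the log2 fold change was -0.36 (SE 0.08, edgeR adjusted p = 0.000819). HMGCS1, the cytosolic HMG-CoA synthase, averaged 106.6 ± 6.1 CPM in AHR siRNA cells and 134 ± 7 CPM in control siRNA cells (SD, n = 3 each), 79.5% of control (log2 fold change -0.33, edgeR adjusted p = 0.000422). The higher member was GGPS1, the synthase of the geranylgeranyl diphosphate used to anchor proteins in membranes, at 41.1 ± 4.2 and 33.9 ± 0.9 CPM in AHR siRNA and control siRNA cells (SD, n = 3 each). Its log2 fold change was 0.28 (edgeR adjusted p = 0.00922), and 0.20 without AHR siRNA replicate 1, which ended the call (edgeR adjusted p = 0.0648). In GENCODE 29, 37.3% of the exon length of GGPS1 is shared with TBCE, whose ID in that release is not among the deposited IDs. For the kinase genes MVK and PMVK and for FDPS, the farnesyl diphosphate synthase, the log2 fold changes were -0.08, -0.06 and -0.10, with 95% intervals of -0.28 to 0.12, -0.31 to 0.19 and -0.24 to 0.05.

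**Figure D2:**
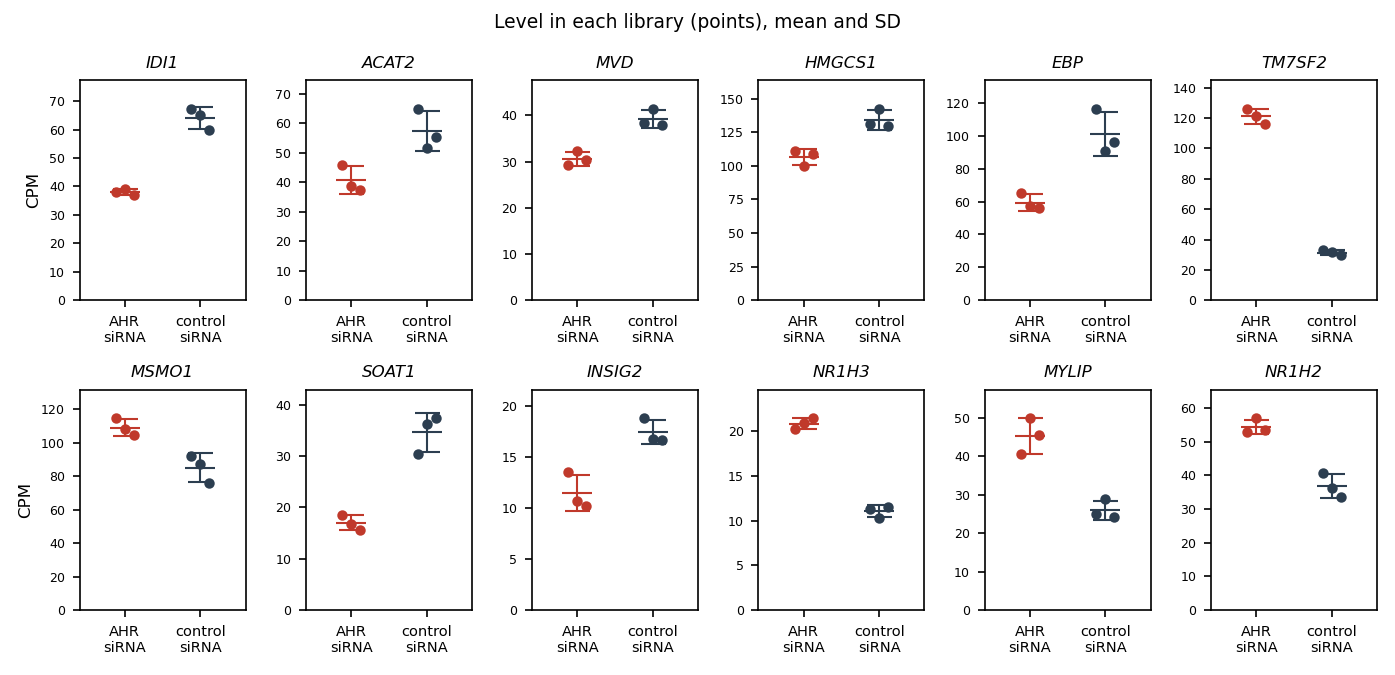
CPM of 12 of the genes in each of the 3 AHR siRNA libraries (red, left) and 3 control siRNA libraries (dark, right); points are libraries, and bars give the mean and SD. Each panel starts at 0 and has its own scale. All 12 are called genes whose call held in every alternative at an adjusted p under 0.05, so separation came with this choice. In all 12 panels the groups do not overlap, as in 18 of the 30 genes and in 63.7% of all tested genes. TM7SF2 is furthest apart at 116 to 126 CPM against 29.5 to 32.9 CPM.

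At the branch that commits carbon to sterols, 1 gene was higher, 1 was lower and 1 was not called, with log2 fold changes between -0.24 and 0.19. FDFT1, the squalene synthase gene, had 269, 267 and 245 CPM in AHR siRNA libraries and 248, 219 and 218 CPM in control siRNA libraries. AHR siRNA replicate 3 fell just below control siRNA replicate 1, so the groups overlapped. Its log2 fold change of 0.19 (edgeR adjusted p = 0.0264, SE 0.07) lost its call without control siRNA replicates 2 or 3 (edgeR adjusted p = 0.131 and 0.151) and without AHR siRNA replicates 1 or 2 (edgeR adjusted p = 0.0851 and 0.0977).

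SQLE, the squalene epoxidase gene, stood at 95.3, 89.4 and 86.3 CPM in AHR siRNA libraries and 97.01, 93.4 and 93.5 CPM in control siRNA libraries. These ranges overlap, and the log2 fold change was -0.07 with a 95% interval of -0.21 to 0.07. LSS, which encodes the synthase that folds squalene epoxide into lanosterol, had 87.7, 104 and 93.1 CPM in AHR siRNA libraries and 107.2, 115.6 and 114.8 CPM in control siRNA libraries. The AHR siRNA libraries were the lower ones, at a log2 fold change of -0.24 (edgeR adjusted p = 0.0074, SE 0.07), a call that was lost with library totals alone (edgeR adjusted p = 0.282) and with upper-quartile factors (edgeR adjusted p = 0.0640).

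By the estimates from all 6 libraries, the steps from lanosterol to cholesterol held both the largest rise and the largest fall among the enzymes. TM7SF2 (ENSG00000149809.13, on chromosome 11) encodes a sterol reductase of the endoplasmic reticulum that acts just after the demethylation of lanosterol. It stood at 126, 121.5 and 116 CPM in AHR siRNA libraries, against 32.9, 31.6 and 29.5 CPM in control siRNA libraries. The 6 values fell into groups far apart, 3.87-fold higher in AHR siRNA cells (log2 fold change 1.95, SE 0.07, edgeR adjusted p = 1.63e-13). Of all 14900 tested genes, 155 had a higher log2 fold change. TM7SF2 shares 16 bases of exon with its neighbour VPS51 on the same strand, whose log2 fold change was -0.17 (SE 0.08, edgeR adjusted p = 0.0985).

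EBP (ENSG00000147155.9, on chromosome X), the sterol isomerase gene, had 65.1, 57.1 and 55.8 CPM in AHR siRNA libraries and 116, 91.0 and 96.4 CPM in control siRNA libraries. Control siRNA replicate 1 was the highest, and the groups did not overlap, with AHR siRNA cells at 58.6% of control (log2 fold change -0.77, SE 0.09, edgeR adjusted p = 4.9e-07). The fall of EBP was close to that of IDI1 (-0.75, SE 0.08). IDI1 fell more than EBP without control siRNA replicate 1, AHR siRNA replicate 2 or AHR siRNA replicate 3. EBP fell more when any of the other libraries was left out. MSMO1 encodes the methylsterol oxidase that starts removal of the methyl groups at the fourth carbon. It rose to 114.6, 108 and 105 CPM in AHR siRNA libraries, against 92.3, 87.7 and 75.8 CPM in control siRNA libraries, and the log2 fold change was 0.36 (SE 0.08, edgeR adjusted p = 0.000529).

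NSDHL, the dehydrogenase that acts with MSMO1, was lower at a log2 fold change of -0.22 (edgeR adjusted p = 0.0256, SE 0.08), against the direction of its partner. The NSDHL call was lost without control siRNA replicate 1 (-0.17, edgeR adjusted p = 0.0640), with AHR siRNA replicate 3 left out (-0.15, edgeR adjusted p = 0.160) and under both the library totals and the upper-quartile scaling (edgeR adjusted p = 0.433 and 0.146). HSD17B7, the reductase that ends this demethylation, was not called at -0.25 (edgeR adjusted p = 0.0683) but was called without control siRNA replicate 3 or AHR siRNA replicate 1 (-0.34 in both, edgeR adjusted p = 0.0232 and 0.0262). Part of its reads may belong to the pseudogene HSD17B7P2, which held 291 counts over the 6 libraries against 1445 for HSD17B7. The desaturase gene SC5D and DHCR7, a reductase of the last step, were not called at log2 fold changes of 0.13 and -0.03, with 95% intervals of -0.01 to 0.28 and -0.16 to 0.11. CYP51A1, the lanosterol demethylase gene, had only 2.90 to 3.31 CPM in AHR siRNA libraries and 2.35 to 3.38 CPM in control siRNA libraries. In GENCODE 29 another gene model on the same strand covers 79.4% of the exon length of CYP51A1. The ID of that model is not among the deposited IDs. Whether it affected the counting is not known, so this low level is uncertain. The 95% interval of the log2 fold change of CYP51A1 ran from -0.36 to 0.53.

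Scaled to exon length (CPM per kilobase of the exon union in GENCODE 29), TM7SF2 moved to place 5 of the 30 genes in AHR siRNA cells, against place 19 in control siRNA cells. Its length-scaled level was 35.6 ± 1.5 CPM per kilobase in AHR siRNA cells and 9.20 ± 0.49 in control siRNA cells (SD, n = 3 each). In AHR siRNA cells this was within the SD of the next gene above it, DHCR7 (36.2 ± 2.1), and below that of MSMO1 (37.8 ± 1.7). FDFT1 and NPC2 held the first and second places in both groups, in changed order. NPC2 stood at 45.7 ± 2.7 CPM per kilobase in AHR siRNA cells and 51.5 ± 2.7 in control siRNA cells. EBP took place 7 in AHR siRNA cells and place 3 in control siRNA cells.

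Of the 4 genes of sterol sensing and SREBP2 control, INSIG2 fell, SCAP rose and SREBF2 and INSIG1 were not called. SREBF2, the gene of SREBP2, had 180.5, 214 and 199 CPM in AHR siRNA libraries and 170.2, 188 and 173 CPM in control siRNA libraries. The groups overlapped, and the log2 fold change of 0.16 was not called (SE 0.07, edgeR adjusted p = 0.0682). It was called without AHR siRNA replicate 1 (0.22, edgeR adjusted p = 0.0191), with library totals alone (0.31, edgeR adjusted p = 0.00243) and with upper-quartile factors (0.24, edgeR adjusted p = 0.00988).

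SCAP, the escort of SREBP2, had 112.7, 133 and 124 CPM in AHR siRNA libraries and 102.3, 107.7 and 108.5 CPM in control siRNA libraries. The AHR siRNA libraries were the higher ones, at a log2 fold change of 0.22 (edgeR adjusted p = 0.0138, SE 0.07), and the call was lost without AHR siRNA replicate 2 (0.16, edgeR adjusted p = 0.1).

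The proteins of the INSIG genes retain SCAP in the endoplasmic reticulum. INSIG1, itself a target of SREBPs, was at 37.9, 37.4 and 37.6 CPM in AHR siRNA libraries and at 33.2, 38.8 and 29.8 CPM in control siRNA libraries. Its values overlapped, with a log2 fold change of 0.15 that was not called (SE 0.09, edgeR adjusted p = 0.176) but was called without control siRNA replicate 2 (0.25, edgeR adjusted p = 0.0332), with library totals alone (0.29, edgeR adjusted p = 0.0136) and with upper-quartile factors (0.23, edgeR adjusted p = 0.0408). INSIG2 was at 13.5, 10.7 and 10.2 CPM in AHR siRNA libraries and at 18.8, 16.8 and 16.7 CPM in control siRNA libraries. Each AHR siRNA library lay below the control libraries, at 65.8% of control (log2 fold change -0.61, SE 0.12, edgeR adjusted p = 0.000235).

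Counted within each library, where no scaling enters, the ratio of INSIG1 to INSIG2 was 2.81, 3.50 and 3.68 in AHR siRNA libraries and 1.77, 2.31 and 1.78 in control siRNA libraries. The groups did not overlap, and the log2 ratio was 0.77 higher in AHR siRNA libraries (exact two-sided permutation test, p = 0.1, the smallest value that 3 against 3 libraries can give).

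**Figure D3:**
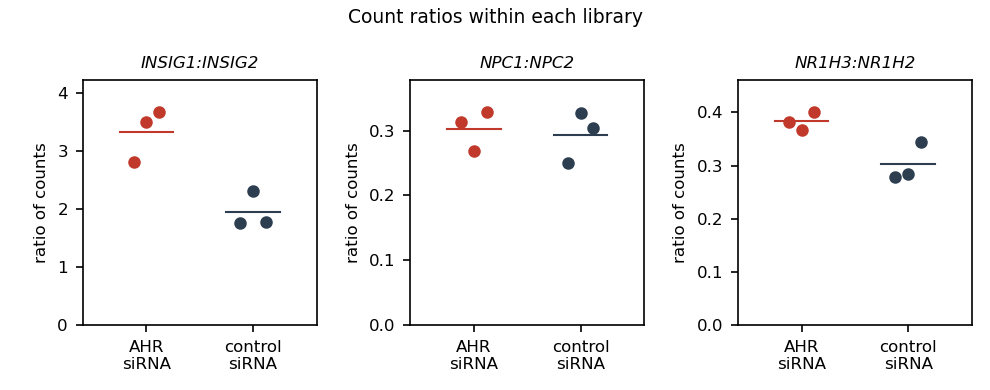
Ratios of counts between partner genes in each of the 3 AHR siRNA libraries (red, left) and 3 control siRNA libraries (dark, right), with the mean as a line and axes from 0. INSIG1:INSIG2 and NR1H3:NR1H2 were higher in every AHR siRNA library than in every control library, whereas the NPC1:NPC2 ratios overlapped.

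Of the 4 genes of sterol transport and storage, 2 were lower and 2 were not called. SOAT1 (ENSG00000057252.11, on chromosome 1) encodes the enzyme that esterifies cholesterol for storage in lipid droplets. It stood at 18.5, 16.8 and 15.6 CPM in AHR siRNA libraries, against 30.3, 36.2 and 37.3 CPM in control siRNA libraries. Every AHR siRNA value was below the lowest control value, at 49.0% of control (log2 fold change -1.03, SE 0.10, edgeR adjusted p = 5.44e-08), and 756 of all tested genes had a lower log2 fold change.

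NPC1 and NPC2 hand cholesterol out of the lysosome. NPC2 was at 128, 132 and 117.5 CPM in AHR siRNA libraries and at 150.1, 136.5 and 138 CPM in control siRNA libraries. The AHR siRNA libraries were below the control libraries, but by little: the log2 fold change was -0.17 (SE 0.07, edgeR adjusted p = 0.0381). The call was lost without control siRNA replicates 1 or 3 (edgeR adjusted p = 0.0721 and 0.0545), without AHR siRNA replicates 1 or 3 (edgeR adjusted p = 0.0522 and 0.196), with library totals alone (edgeR adjusted p = 0.762) and with upper-quartile factors (edgeR adjusted p = 0.263).

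NPC1 had 40.01, 35.2 and 38.6 CPM in AHR siRNA libraries and 37.6, 44.6 and 42.2 CPM in control siRNA libraries. These overlap, with a log2 fold change of -0.13 that was not called (edgeR adjusted p = 0.199) and was -0.21 without control siRNA replicate 1 (edgeR adjusted p = 0.0323). RMC1 and ISCA2, which overlap NPC1 and NPC2 on the opposite strands over 6.0% and 3.7% of their exon length, were called lower at -0.39 and -0.62. The log2 ratio of NPC1 to NPC2 counts differed by 0.05 (exact two-sided permutation test, p = 0.6). STARD4, a soluble sterol carrier, was not called at 0.11, with a 95% interval of -0.09 to 0.31.

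The LXR genes rose together with MYLIP, the ubiquitin ligase gene that LXRs induce and whose product sends lipoprotein receptors to degradation. All 3 were called higher, where 30% of all tested genes were. Whether the LXRs had a part in the rise of MYLIP was not tested. NR1H3, which encodes LXR alpha, was at 20.2, 20.9 and 21.4 CPM in AHR siRNA libraries and at 11.3, 10.4 and 11.5 CPM in control siRNA libraries. With no overlap, AHR siRNA cells had 188% of the control level (log2 fold change 0.91, SE 0.10, edgeR adjusted p = 3.33e-07). MYLIP had 40.6, 49.8 and 45.4 CPM in AHR siRNA libraries and 24.9, 28.8 and 24.1 CPM in control siRNA libraries. Here too the groups were apart, at 174% of control (log2 fold change 0.80, SE 0.09, edgeR adjusted p = 5.48e-07).

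NR1H2, which encodes LXR beta, was at 52.9, 56.8 and 53.5 CPM in AHR siRNA libraries and at 40.7, 36.3 and 33.5 CPM in control siRNA libraries. The lowest AHR siRNA library exceeded the highest control library, and the log2 fold change was 0.56 (SE 0.08, edgeR adjusted p = 8.6e-06). NR1H3 had 0.382, 0.367 and 0.401 counts per count of NR1H2 in AHR siRNA libraries and 0.279, 0.285 and 0.345 in control siRNA libraries, and the log2 ratio was 0.35 higher in AHR siRNA libraries (exact two-sided permutation test, p = 0.1, again the smallest possible). NR1H3 overlaps ACP2 on the opposite strand over 4.2% of its exon length, and ACP2 had a log2 fold change of 0.00 (SE 0.08).

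Around the pathway, 45 further genes were listed by role, and 41 were tested. Of these, 17 were lower, 12 were higher and 12 were not called, so 41.5% were lower and 29.3% higher, where 30.1% of all tested genes were lower and 30% higher. The first list of 13 genes covers the proteases that release SREBPs and the machinery that degrades sterol enzymes and INSIGs, with 4 lower and 6 higher (1 lower and 6 higher with library totals alone, 2 lower and 6 higher with upper-quartile factors). The Golgi proteases that cut SREBPs in turn went opposite ways. MBTPS2, the site-2 protease gene, had 12.6, 9.19 and 13.2 CPM in AHR siRNA libraries, against 27.8, 31.6 and 30.3 CPM in control siRNA libraries, a log2 fold change of -1.36 (edgeR adjusted p = 8.67e-09, SE 0.12). MBTPS1, the site-1 protease gene and named after its value was seen, averaged 156 ± 1 CPM in AHR siRNA cells and 122 ± 1 CPM in control siRNA cells (SD, n = 3 each), so that its log2 fold change was 0.35 (edgeR adjusted p = 7.3e-05, SE 0.06). SREBF1, the gene of SREBP1, was higher at 0.47 (SE 0.08), as were ERLIN2, a scaffold of sterol-dependent degradation in the endoplasmic reticulum, at 0.81 (SE 0.07) and the ubiquitin ligase gene MARCHF6 at 0.39 (SE 0.06). VCP, which encodes an ATPase that pulls proteins out of the membrane for degradation, and AUP1, a partner of ubiquitin enzymes at lipid droplets, were lower at -0.29 (SE 0.07) and -0.19 (SE 0.07, edgeR adjusted p = 0.0219).

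Genes that use the isoprenoids were lower in 8 of 14 cases (57.1%) and higher in 2 (14.3%), against 30.1% and 30% of all tested genes. With library totals alone 5 were lower and 2 higher, and of all 14900 tested genes 3205 were lower and 5885 higher. Only 1 was higher with the DESeq2 Wald test, with no filter or at an adjusted p under 0.01. The same held without any single one of control siRNA replicates 1, 2 and 3 or AHR siRNA replicates 1 and 2. ICMT, which methylates prenylated proteins, averaged 70.3 ± 2.4 CPM in AHR siRNA cells and 117 ± 6 CPM in control siRNA cells (SD, n = 3 each), 60.1% of control (log2 fold change -0.73, SE 0.07, edgeR adjusted p = 2.8e-08). PDSS1 and PDSS2 encode the subunits of the synthase that makes the side chain of coenzyme Q, and their log2 fold changes were -0.84 (SE 0.08) and 0.63 (SE 0.10). NUS1, a subunit of the dolichol-making enzyme, was lower at -0.47 (SE 0.08), and RABGGTA, a subunit of the enzyme that prenylates Rab proteins, was higher at 0.20 (SE 0.08, edgeR adjusted p = 0.0375).

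The third list holds 18 genes of sterol transfer, ester turnover and oxysterol synthesis, of which 14 were tested, 5 lower and 4 higher (35.7% and 28.6%, against 30.1% and 30% of all tested genes). With library totals alone 4 were lower and 6 higher, and with upper-quartile factors 4 were lower and 5 higher. STARD3NL, a late endosomal membrane protein gene, averaged 19.5 ± 1.2 CPM in AHR siRNA cells and 48.6 ± 4.0 CPM in control siRNA cells (SD, n = 3 each), so that its log2 fold change was -1.32 (edgeR adjusted p = 3.31e-10, SE 0.09). NCEH1, a hydrolase of cholesteryl esters, and TMEM97, a binding partner of NPC1, were at 54.8% and 58.9% of control. OSBP and OSBPL2, oxysterol-binding transfer proteins, were at 170.2% and 142% of control, and GRAMD1A, a carrier of sterol from the plasma membrane to the endoplasmic reticulum, at 212%. Of the untested genes, CH25H was at 0 in all 6 libraries, and GRAMD1B, SOAT2 and CYP27A1 were below the filter.

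**Figure D4:**
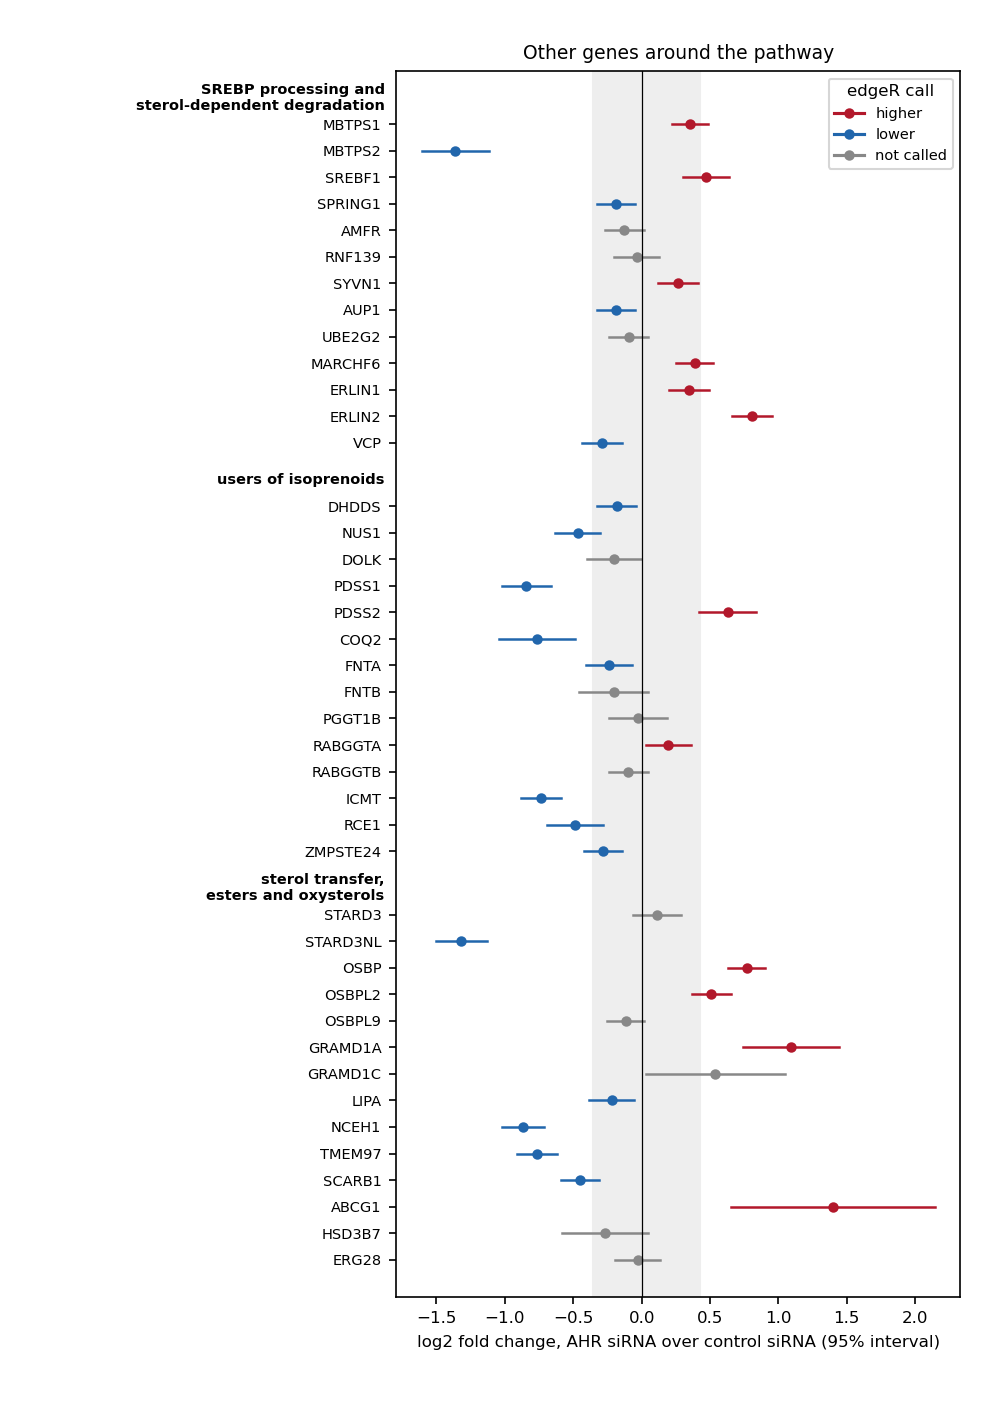
Log2 fold change, AHR siRNA over control siRNA (3 libraries each), of the 41 tested genes around the pathway in 3 lists, with 95% intervals and the edgeR call by colour; the grey band is the same as in the plot of the 30 genes. MBTPS2 at -1.36 and STARD3NL at -1.32 lie farthest to the left. ABCG1 at 1.40, with a wide interval and only 5 to 24 counts per library, lies farthest to the right.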

How the data were processed

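RNA-seq counts of 6 DLD-1 libraries were analysed. The authors deposited 1 table per library that gives a whole-number count for each of 60483 versioned Ensembl IDs. The submitters' processing notes name HTSeq, TopHat and TopHat2 2.0.11 and the builds GRCh37 and hg19, without saying what each was used for. Strandedness and the handling of reads shared by several genes are not given. Groups and replicate numbers came from the sample titles.

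The deposited counts went unchanged into edgeR 4.0.16 under R 4.3.3 (filterByExpr, TMM, glmQLFit and glmQLFTest with group as the only term). The p-values were adjusted by Benjamini-Hochberg over 14900 tested genes. The fit was also run on simulated counts with changes planted in a small share of genes, which does not test the scaling. CPM were computed on TMM-scaled totals of tested genes. The SE is the log2 fold change divided by the square root of F, and intervals are 95% and unadjusted. Chromosomes, exon overlaps and lengths came from GENCODE 29 (GRCh38), which may not be the annotation behind the counts; promoters came from RefSeq. Alternatives were DESeq2 size factors, library totals, upper-quartile factors, other filters, DESeq2 1.42.0, limma-voom (limma 3.58.1), a replicate block, a threshold of 0.01 and each library left out.

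The 30 genes, the further lists and the tests were chosen with earlier results of these data known. Values in every library were set for the 3 members of each role with the largest change, for INSIG1, INSIG2, SREBF2 and SCAP, and for AHR. In each further list up to 3 called genes per direction with the smallest p are named. Counts limit the precision of low genes, and n is 3 per group. A gene of the further lists and a marker gene are not reported here and were left out of the counts.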

Additional observations from a re-analysis of the deposited data

How the results depend on the processing

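Of the 18 called genes among the 30, 12 kept their call and direction in all 14 alternatives judged at an adjusted p under 0.05 (ACAT2, HMGCS1, MVD, IDI1, TM7SF2, MSMO1, EBP, INSIG2, SOAT1, NR1H2, NR1H3 and MYLIP). The other 6 (GGPS1, FDFT1, LSS, NSDHL, SCAP and NPC2) lost the call in at least 1, and none of the 18 changed sign. The other scalings shifted the values upward: the median log2 fold change over all tested genes was 0.154 with library totals alone and 0.085 with upper-quartile factors, against 0.007 with TMM. That of the 30 genes was 0.083 and 0.014, against -0.065. Values near 0 crossed it with this shift, which says nothing particular to these genes: with library totals MVK (0.067), PMVK (0.085), FDPS (0.052), SQLE (0.080), DHCR7 (0.12) and NPC1 (0.017) were above 0 and uncalled, and with upper-quartile factors PMVK (0.016), SQLE (0.011) and DHCR7 (0.054) did. Leaving out 1 library, uncalled values crossed 0 for PMVK (-0.14 to 0.018), CYP51A1 (-0.071 to 0.18) and DHCR7 (-0.058 to 0.020). SC5D, INSIG1 and STARD4 were called higher with library totals (edgeR adjusted p = 0.00206, 0.0136 and 0.0264), and SC5D and INSIG1 also with upper-quartile factors (edgeR adjusted p = 0.0114 and 0.0408). With 1 library left out, 8 to 10 of the 30 were lower and 6 to 8 higher. The deviations of same-numbered libraries from their group means correlated at 0.193, -0.04 and 0.154, and 3 of the 6 libraries correlated best with their own number, so the numbers were not taken to pair the libraries. With the replicate block, calls over all genes went to 9598, against 8953 without it, 11 of the 30 were lower and 9 higher, as HSD17B7 (-0.24, edgeR adjusted p = 0.0262) and SREBF2 (0.16, edgeR adjusted p = 0.0106) were then called; at an adjusted p under 0.01, 8 were lower and 6 higher. DESeq2 and limma-voom gave 10 lower and 8 higher.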

Other observations

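Antisense genes that overlap members had values of their own. STARD4-AS1 had 24, 19 and 25 counts in AHR siRNA libraries and 9, 9 and 9 counts in control siRNA libraries (log2 fold change 1.38, SE 0.32, edgeR adjusted p = 0.0012), while STARD4 was not called. SREBF2-AS1 was lower, at 6.41 ± 0.41 CPM in AHR siRNA cells and 8.28 ± 0.53 CPM in control siRNA cells (SD, n = 3 each; log2 fold change -0.37, SE 0.14, edgeR adjusted p = 0.0296), while the value of SREBF2 was 0.16. Without the strand setting, reads in the shared bases cannot be told apart.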
